A study of Mus musculus with 6 samples.

Results

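DFL16 is the mouse family of heavy-chain diversity (D) genes that carries the Ighd1 names. Its members were the sequences whose first D call named an Ighd1 gene, and these numbered 90743 of 228609 sequences in 6 libraries. Rearranged heavy-chain (Igh) joins were read from genomic DNA by VDJ-seq, which captures V(D)J joins at the DNA level, after removal of duplicate molecules. The mice were C57BL/6 and 12 weeks old, and B cells of the spleen had been enriched by magnetic depletion of other cells. Input DNA was 500 ng, 1 µg, 2.5 µg or 5 µg in 4 libraries. A further pair, labelled Q5_vent and Q5_Q5, differed in DNA polymerases, with the input not given in the sources used here. Each group held 1 library. The labels do not say whether the libraries came from separate mice, so a p-value over libraries measures the spread between libraries, which may be technical. Total sequences ranged from 8704 at 500 ng to 112320 at 5 µg. The files hold DNA joins and no expression, so the cell type could not be checked against markers.

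In a developing B cell, the RAG recombinase first joins a D gene to a J gene and then a V gene to the DJ join, and exonucleases and terminal transferase (TdT) trim and extend the ends. The D gene supplies the centre of CDR3, the loop of the heavy chain that usually touches antigen most. A D gene can be read in 3 frames. In mice one frame is preferred in mature B cells, another can give a truncated Dμ protein from the DJ join that halts B cell development, and the third often holds stop codons. DFL16.1, listed as Ighd1-1, lies far from the J genes in the D cluster and is among the most used D genes of the mouse. The other large family, DSP2 (the Ighd2 genes), lies between Ighd1-1 and the J genes and served here as the comparison, with 95900 sequences.

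Ighd1-1 lies on chromosome 12 at 113482170 to 113482192 in GRCm38, a D segment of 23 bases. It is 52336 bases from Ighj1, the nearest J gene, with 17 annotated D genes nearer to J and 2, Ighd3-1 and Ighd5-1, farther away. Its letters, read 5′ to 3′ as the most frequent aligned base of the deposited reads, are shown first because the reading frames and the joins to J are described by them. Capitals mark the stop codons of frame 3 (positions 14 to 16 and 17 to 19, counted from 1 at the V-facing end). The shorter Ighd1-2, called in few joins, is shown for contrast.
IGHD1-1*01: tttattactacggTAGTAGctac
IGHD1-2*01: ttcattactacggctac
Frame 1 of Ighd1-1 starts at base 3 and reads YYYGSSY. Frame 2 starts at base 1 and reads FITTVVA, the frame of the Dμ protein. Frame 3 starts at base 2 and reads LLLR, then both stop codons, then L. The most frequent join without an added base is shown next for each J gene, with germline D bases to the trim point, then germline J to its conserved tryptophan codon. Capitals mark bases present at that place in both genes, which cannot be given to one of them.
join Ighd1-1 to Ighj1: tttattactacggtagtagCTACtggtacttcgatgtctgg
join Ighd1-1 to Ighj2: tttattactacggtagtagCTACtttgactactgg
join Ighd1-1 to Ighj3: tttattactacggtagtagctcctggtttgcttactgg
join Ighd1-1 to Ighj4: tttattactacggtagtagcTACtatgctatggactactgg

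IGHD1-1*01 carried nearly the whole family. It was the first call of 84046 sequences, 92.6% of the family, and its share of the family ranged from 91.9% to 92.8% over libraries. The aligned D of these joins had a median of 15 bases and a mean of 14.2 ± 4.34 (SD over joins). The allele IGHD1-1*02 was called in 3364 sequences, IGHD1-2*01 in 2091 and IGHD1-3*01 in 1242. These minor calls rested on short alignments. Their means were 6.16, 8.25 and 5.65 bases in that order, and 97.9%, 68.2% and 99.4% of them had under 10 aligned bases. Only 34.7% of IGHD1-1*02 calls and 44.2% of IGHD1-3*01 calls named a single D family, against 97.0% for IGHD1-1*01. Ighd1-2 and Ighd1-3 are not listed in the RefSeq table of GRCm38.p6 used here. The minor calls are therefore counted as members by the rule, but none is taken as evidence of a further gene in these mice.

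The family made up about the same share of every library. DFL16 was 40.3% of sequences at 500 ng (3504 sequences, Wilson 95% interval 39.2% to 41.3%), and 39.7% in each of the libraries of 1 µg (6776), 2.5 µg (22208) and 5 µg (44597, interval 39.4% to 40.0%). It was 39.5% in Q5_vent (7696 sequences) and 39.7% in Q5_Q5 (5962 sequences). DSP2 ranged from 41.4% to 42.6%. Between 5 µg and 500 ng the DFL16 share differed by -0.552 percentage points (95% interval -1.62 to 0.517), and between Q5_Q5 and Q5_vent by 0.170 (-0.871 to 1.21). These intervals cover counting error only, and neither difference was detectable at this depth. Of 88826 distinct DFL16 clones (identical in V gene, J gene and CDR3 sequence), 645 (0.726%) occurred in more than 1 library and 4 in all 6. DSP2 was similar, with 733 of 93169 clones (0.787%) in more than 1 library and 8 in all 6.

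Trimming left most joins with the middle of Ighd1-1. Only 1103 of the 84046 IGHD1-1*01 joins (1.31%) kept all 23 bases. The base kept most often was position 12, present in 94.4% of productive and 94.4% of out-of-frame joins. The first base was kept in 6.36% of productive and 10.2% of out-of-frame joins, and the last base in 19.0% and 21.0%. The J-facing end thus stood intact more often than the V-facing end in both classes. In the leading joins to Ighj1, Ighj2 and Ighj4, bases shared by D and J were aligned to J. They count here as lost from D although the same letters are present.

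Productive joins, those in frame and free of stop codons, held less of the D gene than out-of-frame joins. Out-of-frame joins make no heavy chain and serve as the class not read as protein. The aligned D of all DFL16 joins averaged 13.4 ± 0.0418 bases in productive joins (SD over 6 libraries) and 14.2 ± 0.0738 in out-of-frame joins. The difference of -0.754 bases had the same sign in 6 of 6 libraries, and the 2 ranges did not overlap. A productive join cannot hold a stop codon, which by definition leaves out the long frame 3 joins. In frames 1 and 2 alone, an alternative chosen after the data were seen, the difference was -0.359 bases (13.8 against 14.2), again in 6 of 6 libraries. Over all frames productive joins had lost more at the V-facing end (5.04 against 4.61 bases) and at the J-facing end (4.41 against 4.12 bases). Each of these differences passed the exact two-sided sign-flip permutation test over 6 libraries (p = 0.03125, the smallest that 6 libraries allow). The Benjamini-Hochberg value over the 18 single values tested was 0.0331 for all 17 of them that passed. In frames 1 and 2 alone the V-facing difference was 0.415 bases and held in 6 of 6 libraries, while the J-facing difference turned to -0.0620 and was not called. Among joins with at least 10 aligned bases, the J-facing difference was 0.163 bases and no longer had one sign in all libraries. Bases shared with J can count as lost at the J-facing end. One case is the Ighj1 join that ends at D base 19 (3598 joins, 87.7% productive). The part of such joins in the J-facing difference was not tested. The plot of kept bases shows the loss by position.

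**Figure D1:**
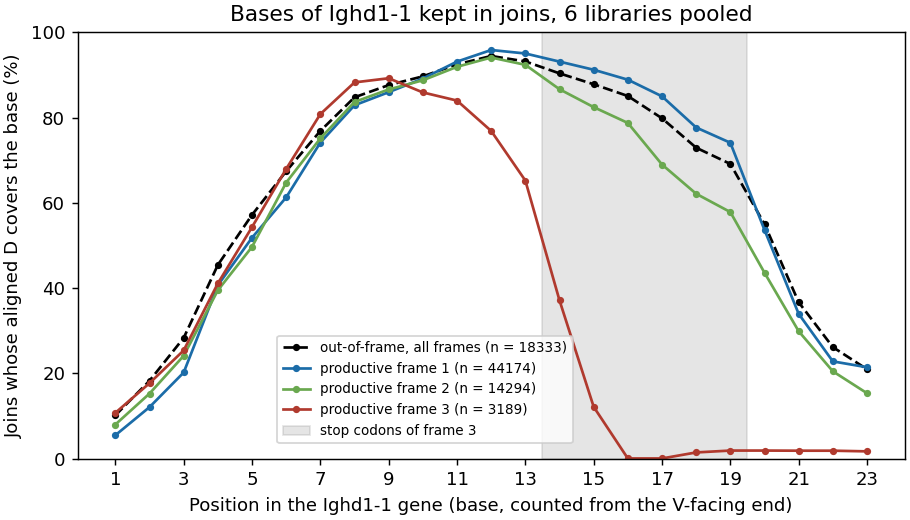
Share of IGHD1-1*01 joins (%, 6 libraries pooled) whose aligned D covers each germline base, for out-of-frame joins and for productive joins of each frame. Position 12 is kept most in out-of-frame joins (94.4%) and in productive frames 1 and 2, while productive frame 3 joins peak at position 9 (89.2%) and fall to 0.0627% at position 16, inside the grey stop codons.

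J partners set DFL16 apart from DSP2. DFL16 joins used Ighj1, the J gene nearest to D, in 24.9% ± 1.02 of sequences (SD, 6 libraries), and DSP2 joins in 14.6% ± 0.435, a 1.71-fold difference. By library the DFL16 share was 23.7% with 500 ng, 23.8% with 1 µg, 25.9% with 2.5 µg, 26.1% with 5 µg, 24.5% for Q5_vent and 25.2% for Q5_Q5. The DSP2 share was 14.6%, 14.3%, 15.3%, 14.8%, 14.0% and 14.4% in the same order. Every library lay at or above 23.7% for DFL16 and at or below 15.3% for DSP2, so the ranges were far apart. The difference was 10.3 percentage points ± 0.829 and passed the exact sign-flip permutation test (p = 0.03125).

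The other J genes also differed. Ighj2 was the most used partner of DFL16, at 32.3% against 27.4% for DSP2. Ighj3 was the least used, at 18.7% ± 0.933 against 29.8% ± 0.992, a difference of -11.2 points. Ighj4 stood at 24.2% against 28.2%. The ranges of the 2 families did not overlap for any of the 4 J genes, and all 4 passed the exact permutation test (p = 0.03125). For Ighj2 the ranges nearly touched, with 29.97% in the lowest DFL16 library (5 µg) and 29.93% in the highest DSP2 library (Q5_vent). J genes thus ranked Ighj2, Ighj1, Ighj4 and Ighj3 in DFL16 joins by their means. Ighj1 (23.7% to 26.1%) and Ighj4 (23.3% to 24.9%) overlapped in their ranges and are not ordered beyond that spread.

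**Figure D2:**
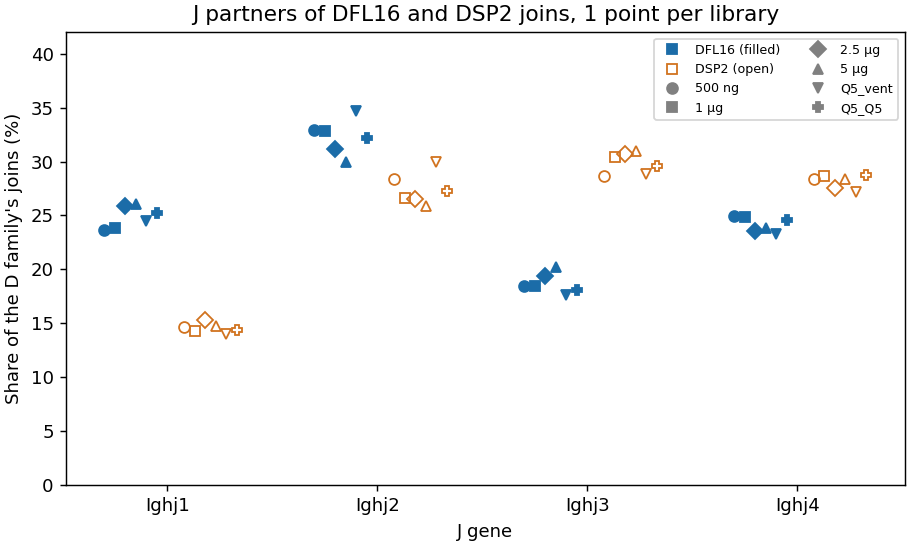
Share of each D family's joins (%) that used each J gene, 1 point per library, filled for DFL16 and open for DSP2. The DFL16 points lie above the DSP2 points for Ighj1 and Ighj2 and below them for Ighj3 and Ighj4, with no overlap. The Ighj2 ranges nearly touch.

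The J pattern was also present in joins that make no protein. In out-of-frame joins Ighj1 held 21.4% of DFL16 and 13.4% of DSP2, and Ighj3 held 22.5% and 33.9%. Both differences had the same sign in 6 of 6 libraries. Ighj4 was the exception, at 21.3% against 22.5% out of frame. Its difference of -1.19 points there no longer had one sign in all libraries. In productive joins Ighj1 held 26.0% against 15.2%, Ighj2 31.5% against 26.2%, Ighj3 17.3% against 28.0% and Ighj4 25.2% against 30.7%.

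Joins to Ighj1 were also built differently. No base stood between the aligned D and J in 25.7% ± 0.901 of DFL16 joins to Ighj1, against 17.4% for Ighj2, 14.8% for Ighj4 and 11.0% for Ighj3. The lowest Ighj1 library, at 24.5%, lay above the highest Ighj2 library, at 19.0%. This trait of Ighj1 was not particular to DFL16. In DSP2 joins the share was 21.0% with Ighj1, 13.2% with Ighj2, 8.83% with Ighj3 and 8.52% with Ighj4. Among DFL16 joins to Ighj1 a single product led. The join printed above, D base 19 to J base 1 across the shared ctac, made up 3598 of 22000 IGHD1-1*01 joins to Ighj1 (16.4%, and 14.2% to 17.4% over libraries). It reads in frame 1, and 87.7% of its copies were productive. The corresponding join to Ighj2, also across ctac, was 865 of 26242 (3.30%). The leading Ighj4 join shares tac and was 484 of 19493 (2.48%), and the leading Ighj3 join shares no base and was 297 of 16311 (1.82%). These joins were described after their values were seen and carry no test. Among joins with at least 1 base between D and J, an alternative also chosen after the data were seen, the Ighj1 difference from DSP2 was 9.39 points, again in 6 of 6 libraries.

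Added and palindromic bases next to D differed by side. DFL16 joins had 2.96 ± 0.0166 bases between D and J, fewer than the 3.56 ± 0.0402 of DSP2 joins. Between V and D they had 4.51 ± 0.0478, slightly more than the 4.34 ± 0.0221 of DSP2. Both differences held in 6 of 6 libraries (exact permutation p = 0.03125). Which bases count as added depends on how far the aligner extends the D gene, and the D call uses the same alignment. These differences are thus not independent of the choice of members, and their values and test are a description.

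DFL16 joins were paired with V genes far from D more often, and with the nearest V genes less often, than DSP2 joins were. Distal V families (Ighv1 and Ighv8) made up 64.3% ± 0.492 of DFL16 joins and 60.0% ± 0.417 of DSP2 joins. Proximal families (Ighv2 and Ighv5) made up 12.4% ± 0.272 and 15.9% ± 0.125. By library the proximal DFL16 share ran from 11.9% to 12.7% and the DSP2 share from 15.8% to 16.1%, without overlap. The distal ranges did not overlap either, and both differences passed the exact permutation test (p = 0.03125). The remaining, middle families stood at 23.4% and 24.0%. Their difference was -0.682 points, negative in 5 of 6 libraries, and did not pass (exact permutation p = 0.0625). The direction of the middle group turned with the class of join. It was 3.31 points among out-of-frame joins and -1.36 among productive joins, each in 6 of 6 libraries. In out-of-frame joins the proximal difference was larger, at -9.42 points.

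Among 103 V genes with at least 200 sequences over both families, limma on log2 ratios of shares called 39 (37.9%) at an adjusted p under 0.05. Of these, 22 (21.4%) were higher with DFL16 and 17 (16.5%) were lower. The median log2 ratio over all 103 was -0.017. Of 55 distal genes 17 were higher and 3 lower, with a median of 0.039. Of 20 proximal genes 2 were higher and 8 lower, with a median of -0.24. Of 28 middle genes 3 were higher and 6 lower, with a median of -0.10.

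The V genes nearest to D were lowest with DFL16. Ighv5-2, at 113578504 to 113578990 on chromosome 12 in GRCm38, was 1.00% ± 0.111 of DFL16 joins and 2.47% ± 0.265 of DSP2 joins. The DFL16 range of 0.856% to 1.16% lay wholly below the DSP2 range of 2.10% to 2.92%. Its log2 ratio was -1.35 (SE 0.05), a 2.54-fold lower share, with a limma adjusted p of 6.6e-17. Of its 876 DFL16 joins, 718 were out of frame and 50 productive. Within out-of-frame joins alone its log2 ratio was -1.14. The neighbouring pseudogene Ighv5-1 had the ratio -1.34 on only 53 DFL16 sequences, and its ranges overlapped (limma adjusted p = 4.4e-05). Ighv2-2, next in order, stood at 1.48% against 2.31% (log2 ratio -0.63, limma adjusted p = 3.0e-11). Ighv5-4 had -0.35 and Ighv2-3 also -0.35, so the 5 placed V genes nearest to D were all called lower. Ighv5-4 was at 0.024 among productive joins alone and at -0.86 among out-of-frame joins.

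Clonal copies touch some of the lower calls. Ighv2-6 had a log2 ratio of -0.80, but 1 clone of the 5 µg library gave 101 of its 562 DSP2 sequences, and with 1 count per clone the ratio was -0.15 and not called. Ighv1-36 had -0.45, and 1 clone of the 5 µg library gave 92 of its 432 DSP2 sequences. With 1 count per clone its ratio was 0.31 and called higher, so its direction turned. Ighv2-6-1, not listed in the RefSeq table, had -0.55, with 31 of 417 DSP2 sequences in 1 clone. With 1 count per clone its ratio was -0.35 and still called (limma adjusted p = 0.010). Ighv3-4, with no clone above 2 sequences, had -0.44 on 103 DFL16 sequences (limma adjusted p = 0.038). Its ratio was -0.40 with single-family D calls (adjusted p = 0.059) and -0.43 with 1 count per clone (adjusted p = 0.051).

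The V genes that were higher with DFL16 moved less. Ighv1-15 led, at 1.55% ± 0.163 of DFL16 joins against 1.17% ± 0.0742 of DSP2 joins, and its ranges did not overlap. Its log2 ratio was 0.44 (SE 0.05, limma adjusted p = 3.9e-07), a 1.36-fold higher share. Ighv1-85, among the V genes farthest from D, followed with 0.39, and Ighv1-81 had 0.33 with no overlap between ranges. Ighv14-4 had 0.29, and Ighv1-58, Ighv8-8, Ighv1-19 and Ighv1-59 had 0.26, 0.26, 0.26 and 0.25. Ratios of this size are fold differences of 1.19 to 1.36.

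Most of the 10 V genes used most by DFL16 were called, with log2 ratios from -0.13 (Ighv3-6) to 0.33 (Ighv1-81). Ighv1-26 was the most frequent, at 5.16% ± 0.270 of DFL16 joins and 4.99% ± 0.220 of DSP2 joins. Its log2 ratio of 0.083 was called (limma adjusted p = 0.018) although the ranges overlapped. Ighv1-64 followed at 3.23% against 2.61% and Ighv3-6 at 2.83% against 3.16%, the only one of the 10 most used that was called lower. Ighv1-50 at 2.79%, Ighv8-8 at 2.67%, Ighv1-82 at 2.51%, Ighv1-72 at 2.49% and Ighv1-81 at 2.43% were called higher, as was Ighv1-64. For Ighv1-64, Ighv1-50, Ighv8-8 and Ighv1-81 the ranges of DFL16 and DSP2 did not overlap. Ighv1-18 at 2.56% and Ighv1-53 at 2.29% did not pass. The count of calls was 23 of 89 tested without the 5 µg library, the deepest of the 6, and 23 of 79 in out-of-frame joins alone.

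**Figure D3:**
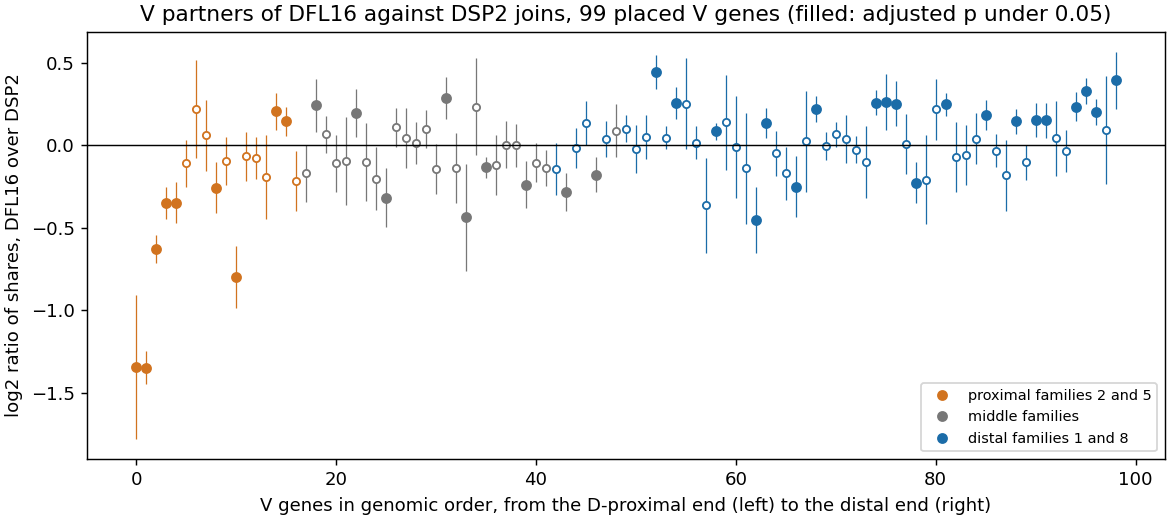
Log2 ratio of shares (DFL16 over DSP2, limma estimate with 95% interval) for the 99 tested V genes placed in RefSeq, in genomic order from the D-proximal end; filled points passed an adjusted p of 0.05. The proximal end falls to -1.35 at Ighv5-2, and no gene exceeds 0.44.

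DFL16 joins were productive more often than DSP2 joins. The productive share of DFL16 was 73.8% ± 0.552 and that of DSP2 68.9% ± 0.582. DFL16 ranged from 73.2% at 1 µg to 74.7% in Q5_Q5 and DSP2 from 68.2% to 69.7%, without overlap. The difference of 4.85 points ± 0.357 held in 6 of 6 libraries (exact permutation p = 0.03125). Out-of-frame joins made up 21.5% of DFL16 and 25.6% of DSP2, and in-frame joins with a stop codon 4.69% and 5.51%. The smaller families DST4 and DQ52 lay higher still, at 81.4% and 83.0% productive, and have no test here. Within DFL16 the productive share was 77.2% with Ighj1, 76.9% with Ighj4, 71.9% with Ighj2 and 68.4% with Ighj3.

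Reading frame 1 dominated productive DFL16 joins, and frame 2 stood much higher than in DSP2. Of 66939 productive joins with a frame, 70.1% ± 0.557 used frame 1 (YYYGSSY), 23.2% ± 0.557 used frame 2 and 6.74% ± 0.4996 used frame 3. DSP2 productive joins used frame 1 in 85.5% ± 0.337, frame 2 in 4.65% and frame 3 in 9.86%. The frame 1 difference of -15.4 points held in 6 of 6 libraries (exact permutation p = 0.03125), with DFL16 between 69.2% and 70.7% and DSP2 between 85.1% and 85.9%. The families differed the same way among out-of-frame joins, where frame was read relative to J. There frame 2 was 20.2% ± 1.03 of DFL16 joins and 8.80% ± 0.797 of DSP2 joins. One example CDR3 of each frame is shown, each found with the same bases in 4 or more libraries. These had 31, 10 and 10 sequences in frames 1, 2 and 3. Few clones recurred in this way, so the examples are not taken as typical of their frames. Capitals mark the aligned D bases.
CDR3 frame 1: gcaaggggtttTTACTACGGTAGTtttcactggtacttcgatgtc
CDR3 frame 2: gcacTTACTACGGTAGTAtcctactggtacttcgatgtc
CDR3 frame 3: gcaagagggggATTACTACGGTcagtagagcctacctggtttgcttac
The frame 2 example encodes ALTTVVSYWYFDV and was seen in 4 libraries with Ighv1-53 and Ighj1. The frame 3 example, seen in 5 libraries with Ighv1-53 and Ighj3, ends its D at the first base of the first stop codon. The frame 1 example, with Ighv5-17 and Ighj1, was seen in all 6.

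Productive joins held more frame 1 and much less frame 3 than out-of-frame joins. Frame 1 was 70.1% of productive and 44.2% ± 0.805 of out-of-frame joins, a difference of 25.9 points. Frame 3 was 6.74% and 35.6% ± 1.02, a difference of -28.9 points. A productive join holds no stop codon by definition, so the loss of frame 3 is in part set by how the classes were made. Frame 2 was 23.2% and 20.2%, a difference of 3.01 points ± 1.26 that ran from 1.11 points at 1 µg to 5.00 in Q5_Q5. All 3 differences had one sign in 6 of 6 libraries, without overlap of ranges (exact permutation p = 0.03125). The 3 shares make up a whole, so a loss of frame 3 set by definition also raises the shares of frames 1 and 2. The outcome of these tests was thus partly fixed in advance, and the 3 differences are a description. The frame 2 direction follows the total it is taken of. Among frames 1 and 2 alone, chosen after the data were seen, frame 2 was 24.8% of productive and 31.3% of out-of-frame joins, -6.46 points in 6 of 6 libraries (exact permutation p = 0.03125). With D read relative to V in place of J, the frame 2 difference over all frames was -16.9 points, while frames 1 and 3 kept their directions at 42.4 and -25.5 points. In-frame joins with a stop codon were mostly in frame 3, at 70.8% ± 3.02, with 20.7% in frame 1 and 8.48% in frame 2.

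Productive frame 3 joins had nearly all lost the stop codons from their aligned D, as the definition of a productive join requires. The frame 3 values below are a description, since that definition also bears on D length and productive share. Of 3189 productive IGHD1-1*01 joins in frame 3, 3128 (98.1%) ended before the first stop codon was complete, 59 began inside the second and 2 covered one. Among out-of-frame joins read in frame 3, 84.8% covered a stop codon. The aligned D of productive frame 3 joins averaged 7.93 ± 2.53 bases (SD over joins), against 14.0 ± 4.43 in frame 1 and 13.1 ± 4.55 in frame 2. Of all joins in each frame, 83.1% were productive in frame 1, 78.3% in frame 2 and 31.1% in frame 3.

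Frame use moved with the J partner. In productive joins frame 1 was 81.7% ± 1.57 with Ighj3, 72.3% with Ighj1, 65.8% with Ighj2 and 65.2% with Ighj4. Frame 2 was 12.8% ± 1.54 with Ighj3, from 10.3% to 14.7% over libraries, and 21.9%, 27.4% and 26.2% with Ighj1, Ighj2 and Ighj4. The Ighj3 range lay below the ranges of the other J genes, the lowest of which began at 20.1% with Ighj1. Out of frame, frame 2 was again lowest with Ighj3, at 13.8%, against 24.8% with Ighj2. Among IGHD1-1*01 joins, those with no base between D and J were in frame 1 in 80.6% of productive cases. With 1 or more bases there the share was 69.4%. These values by J gene and by bases between D and J were not tested.

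**Figure D4:**
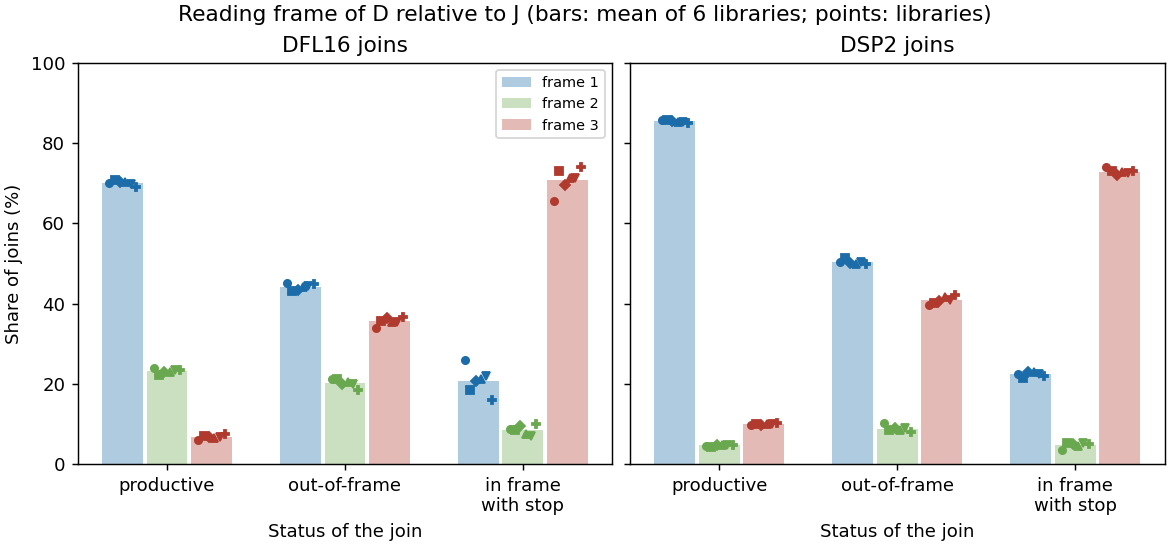
Share of joins (%) in each reading frame of D relative to J, for DFL16 (left) and DSP2 (right), by status of the join; bars are means of 6 libraries and points are libraries. DFL16 has 23.2% of productive joins in frame 2, against 4.65% for DSP2, and frame 3 leads the joins with a stop codon in both families.

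CDR3 loops made with DFL16 were longer than those made with DSP2. The mean CDR3 of productive joins was 40.2 ± 0.131 bases for DFL16 (40.1 to 40.5 over libraries) and 37.9 ± 0.0540 for DSP2 (37.8 to 38.0). The difference of 2.35 ± 0.104 bases held in 6 of 6 libraries (exact permutation p = 0.03125). Ighd1-1 has 23 germline bases against 17 in each DSP2 gene that RefSeq lists, and the D call that chose the members reads bases that lie inside CDR3. The length difference is thus not independent of the choice of members, and its values and test are a description. Loops of 48 bases or more made up 18.5% of productive DFL16 joins and 8.59% of DSP2 joins, and loops of 30 bases or less 10.4% and 14.6%. Within DFL16, frame 1 loops averaged 40.8 bases, frame 2 loops 40.0 and frame 3 loops 35.7. By J gene the DFL16 mean was 42.9 with Ighj1, 42.2 with Ighj4, 38.4 with Ighj3 and 37.6 with Ighj2.

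**Figure D5:**
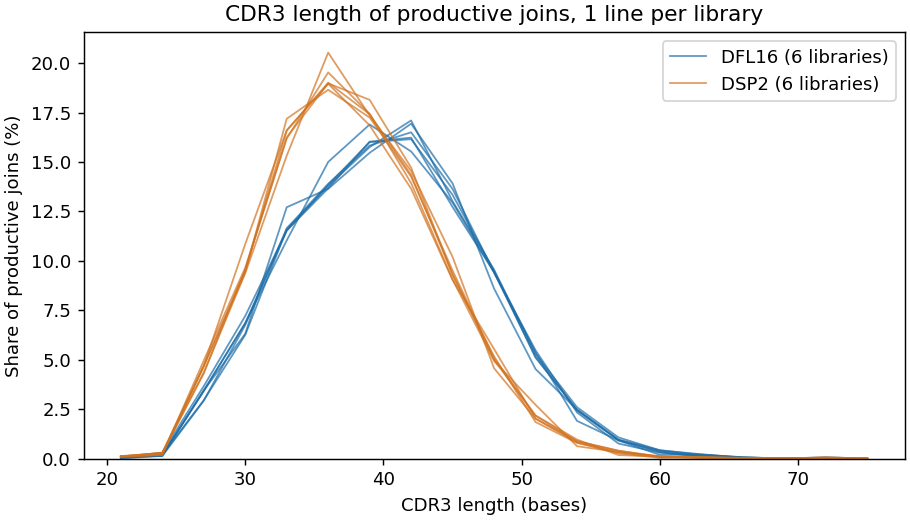
Distribution of CDR3 length (bases) in productive joins, as a share (%) of the family's productive joins, 1 line per library. The DFL16 lines lie to the right of the DSP2 lines in all 6 libraries, with means of 40.2 and 37.9 bases.

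DFL16 gave CDR3 loops rich in serine and in threonine and valine. Because the rule reads D bases, residues coded by D follow from the choice of members, and the amino acid values are a description. Of 20 amino acids, 16 (80%) differed from DSP2 in one direction in all 6 libraries. Serine was 10.3% ± 0.129 of CDR3 residues against 3.95% ± 0.0924 with DSP2. Threonine was 4.28% against 1.76% and valine 5.50% against 2.96%, both coded by frame 2. Proline, isoleucine and histidine were also higher, by 0.342, 0.256 and 0.231 points. Aspartate was lower, at 8.69% against 13.0%, as were asparagine (1.04% against 2.96%), tyrosine (21.4% against 23.5%), alanine (11.3% against 12.9%) and methionine (2.02% against 2.79%). Glutamate, leucine, lysine, arginine and tryptophan were lower by 0.124 to 0.499 points. Glycine (9.62% against 9.47%), phenylalanine (5.62% against 5.56%), glutamine and cysteine did not have one direction in all libraries.

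The germline peptides were visible in the loops. YGSS, from frame 1, was in 38.9% ± 0.547 of productive DFL16 CDR3s, and in 55.6% of those in frame 1. It was in 10 of 66306 DSP2 CDR3s. The D call reads the bases that code for YGSS, so this contrast follows largely from the choice of members. TTVV, from frame 2, was in 47.1% ± 1.25 of frame 2 CDR3s and 10.9% of all productive ones. LLR, from frame 3, was in 32.8% of frame 3 CDR3s.

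The repertoire was diverse around these motifs. The 66949 productive joins held 60378 distinct CDR3 peptides, of which 93.9% were seen once. Of the 10 found with the most pairs of library and V gene, 6 used Ighj1. ARDYGSSYWYFDV was the most frequent by library and V gene, with 31 such pairs, 23 V genes, all 6 libraries and 7 different base sequences. ARDYYGSSYWYFDV (28 pairs), ARDYGSSYGYFDV (26), ARYYGSSYWYFDV (25), ARYYYGSSYWYFDV (25) and ARNYGSSYWYFDV (23) also used Ighj1. ARDYYGSSYFDY and ARDYYGSSYYFDY used Ighj2, with 21 and 19 pairs. ARDYYGSSYGFAY and ARDYYGSSPFAY used Ighj3, with 21 each. All 10 were in frame 1 in every copy.

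A few of these measures differed between libraries of different DNA input or polymerases. Of 33 DFL16 measures, 7 differed between 5 µg and 500 ng by a 95% interval that left out 0, all of them J shares. The same J genes recur among these 7, in all, productive or out-of-frame joins. Ighj1 was 2.39 points higher at 5 µg (0.925 to 3.86), Ighj2 was -3.00 points (-4.61 to -1.38) and Ighj3 1.74 points (0.399 to 3.07). DSP2 joins moved the same way for Ighj2 (28.4% at 500 ng, 25.9% at 5 µg) and Ighj3 (28.6% and 31.0%). Their Ighj1 share was 14.6% and 14.8%. Between Q5_Q5 and Q5_vent 4 of 33 intervals left out 0. Ighj2 differed by -2.50 points in all joins (-4.09 to -0.904) and by -2.52 in productive joins (-4.36 to -0.685), in-frame joins with a stop by -0.916 (-1.61 to -0.222), and CDR3 length by 0.334 bases (0.0636 to 0.603). In DSP2 joins Ighj2 was likewise lower in Q5_Q5 (27.3%) than in Q5_vent (29.9%). These comparisons are of 1 library with 1 library, have no replicate check, and their intervals cover counting error only. Frame shares, D trimming and V group shares had intervals that included 0 in both comparisons. Sequences whose primer tag was marked unclear made up 8.21% of Q5_Q5 and 11.7% to 12.9% of the other libraries, and their part in these differences was not tested.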

How the data were processed

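The deposited files hold 1 row per deduplicated sequence with V, D and J calls, alignment positions, CDR3 and flags for frame and productivity; per the file headers these columns are positions and lengths in bases. Per the submitters' processing notes, Trim Galore 0.4.4, Bowtie2 2.3.2 and mm10 were used; for the parameters and the version of the V(D)J caller, no source used here gives them. All 6 libraries entered every comparison between families; the replicate is the library.

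Members were taken by the first D call with the allele removed. The members, lists and tests were chosen with earlier results of these data known. A call naming several D families counted under its first (6.39% of DFL16, 1.19% of DSP2). V calls used the first gene, and 10.4% to 12.5% of DFL16 calls by library named several V genes, so near-identical genes are uncertain. Distal V is families 1 and 8, proximal 2 and 5, middle the rest. Frame came from the aligned D and the J tryptophan; 13 DFL16 joins with a gap had none.

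Differences within a library were tested by an exact two-sided sign-flip permutation over 6 libraries, and were called when all libraries had one direction. Benjamini-Hochberg adjustment ran over 18 single values and, apart, over 20 amino acids. V genes with at least 200 sequences were tested with limma 3.58.1 (R 4.3.3) on log2 ratios of shares (count plus 0.5), weighted by counting variance. This step was tested on simulated data. The simulated counts had no clonal copies and no added spread between libraries, so they could not show the effect of either. Input and polymerase comparisons have 1 library each and no test. Depth was 8704 to 112320 sequences, so that 0 of the DFL16 joins (3 counts of their total) bounds a share at 0.0856% for 500 ng and at 0.00673% for 5 µg. Molecules were deduplicated, and intervals cover counting error only.

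Named items were every DFL16 call, J gene and frame, the 10 V genes most used by DFL16, up to 8 called V genes at each end of the log2 ratio, and the 10 most frequent CDR3 peptides by library and V gene; Ighv2-3 was named after its value was seen. Coordinates come from RefSeq GRCm38.p6, which placed 99 of 103 V genes. Germline letters are the most frequent aligned base in the deposited reads. Alternatives were single-family calls, at least 10 aligned D bases, 1 count per clone, no unclear primer tags, all other D families as comparison, productive or out-of-frame joins only, single-V calls, at least 500 sequences, a Cochran-Mantel-Haenszel test, the frame relative to V, leaving out each library and, chosen after the data were seen, joins with a base between D and J and frames 1 and 2 only. Software was SciPy 1.17.1, statsmodels 0.14.6, pandas 2.3.3, NumPy 2.4.6 and matplotlib 3.10.9 under Python 3.11.15.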

Additional observations from a re-analysis of the deposited data

Results flagged for a closer look

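In 3 of 38 results compared over libraries, 1 library stood apart from the other 5 by a gap that takes up most of the range. Chance alone sets apart about 1 in 20 such groups. The Ighj2 share of DFL16 exceeded that of DSP2 by 6.22 points at 1 µg, above the other libraries. The middle V families differed by 0.533 points at 500 ng, the only library with a positive value. The valine excess of DFL16 was 2.22 points at 1 µg, below the other libraries.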

How the results depend on the processing

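Of 260 alternative values for the main results, 250 were labelled unchanged. For single values this means the same direction and the same call, where a call is one sign in all libraries used. With 1 library left out, 5 libraries remain and the smallest exact permutation p is 0.0625, so a call there is one sign only. For counts of called V genes or amino acids it means a count within a set fold of the main one. For library shares it means a value inside the main interval. With at least 10 aligned D bases the extra loss at the J-facing end was 0.163 bases and not called. In out-of-frame joins alone Ighj4 was -1.19 points and not called, the middle V families were 3.31 points, and 23 V genes were called, on fewer genes tested. In productive joins alone the middle families were -1.36 points and called. Leaving out each library gave -0.925 to -0.590. Without the 500 ng library all the others had one sign, but the exact permutation p of 0.0625 there does not pass. Leaving out each library gave 23 to 39 called V genes, the lowest without the 5 µg library; of 37 main calls still tested there, 21 remained and all 37 kept their direction. Frame 2 was -16.9 points relative to V, and -6.46 among frames 1 and 2 alone, where the J-facing loss was -0.0620 bases. Frame 3 is left out there by construction; the cause of the other changes was not tested. Of 579 values for single V genes and amino acids, 12 reversed. With 1 count per clone Ighv1-36 was 0.31. Ighv3-6 was 0.10 out of frame, and Ighv5-4 was 0.024 and Ighv1-18 -0.0015 in productive joins. Arginine was 0.124 with at least 10 aligned bases. Cysteine, never called, was 0.00374 without unclear tags, and -0.00693 to 0.00286 on leaving out each library, positive without the 1 µg or Q5_Q5 library (0.000891 without Q5_Q5). Against all other D families cysteine was 0.00349, phenylalanine -0.0737, glycine -0.167 and tyrosine 0.0624. Depth limits rare V genes most, since 71 V genes fell below 200 sequences, and short D alignments limit the minor D calls.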
